A study of Rattus norvegicus with 4 samples.

Results

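The 10 growth factor genes followed here belong to the fibroblast growth factor (FGF), insulin-like growth factor (IGF) and insulin receptor system of the hippocampus. The members were the ligand genes Fgf1, Fgf2, Fgf9 and Igf1, the receptor genes Fgfr1, Fgfr2, Igf1r and Insr, and the receptor substrate genes Irs1 and Irs2. Every probe set to which the platform annotation gave exactly 1 gene symbol, and that symbol one of these 10, was taken. This gave 22 of the 31042 probe sets of the array, and 10 of 14217 annotated genes. Stressed rats were male Wistar rats that entered 4 weeks of chronic unpredictable mild stress, a changing series of mild stressors, at 15 months of age. The nonstressed controls were male Wistar rats of the same age under standard housing with free food and water. All hippocampi were dissected at 16 months. Each group gave 2 arrays, and each array carried hippocampal RNA pooled from 3 rats.

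The FGF ligands bind receptor tyrosine kinases at the cell surface together with heparan sulfate, and the activated receptors feed the Ras-ERK and the PI3K-Akt routes. Insulin and IGF1 act through a pair of closely related receptor tyrosine kinases, which phosphorylate the docking proteins Irs1 and Irs2, and these recruit PI3K. In the adult hippocampus the FGF and IGF systems are known for their part in neurogenesis, glial function and synaptic plasticity, and brain insulin signalling is known to restrain the tau kinase GSK3 through Akt.

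Each array had been scaled to 1 target value, so like shares of bright probe sets say little of RNA quality, which was not examined here. On each array 46.4% to 46.8% of probe sets gave a signal of 100 or more. Taken across the tested probe sets, whose values are not independent, Pearson's r of the log2 signals was 0.993 to 0.994 between arrays of 1 group and 0.972 to 0.974 between arrays of different groups. All 11 listed markers of hippocampal principal neurons were above the signal minimum, among them Prox1, Neurod6 and Zbtb20. Probe sets that reached a signal of 100 on 2 or more arrays were tested, and 14791 did. The test was limma on log2 signals, stressed over control, with Benjamini-Hochberg adjustment over these 14791. The submitters call the 2 arrays of a group biological replicates. Whether the 2 pools shared animals is not given in the sources used here. Each limma p is set against the spread between pools, part of it borrowed from other probe sets of like signal. For a single probe set, exact permutation of 2 against 2 arrays has a smallest two-sided p of 0.333.

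Of the 22 probe sets of the growth factor genes, 10 were tested and 12 were too dim. In stressed rats 5 of the 10 tested probe sets rose at adjusted p under 0.05 and none fell, whereas 12% of all tested probe sets rose and 11.8% fell. The members were chosen with earlier results of these data known, so such contrasts with all probe sets describe and do not test. These 5 belonged to Fgfr1, Fgfr2, Igf1r and Irs2, and their rises were 1.29-fold to 1.5-fold. The stressed signals lay above the control signals without overlap in 7 of the 10, against 34.9% of all tested probe sets, and below them in none, against 29.5%. The median log2 fold change was 0.35 over the 10, and 0.02 over all tested probe sets. No member reached 2-fold at an unadjusted p under 0.05, the fold and p thresholds named in the methods, which 1.6% of all tested probe sets passed. Leaving out stressed replicate 1, stressed replicate 2 or control replicate 1 left 3 rises, and leaving out control replicate 2 left 4. The 5 rises were also those with an unadjusted limma p under 0.05, and no member was lower at that level. The methods' t-test takes the spread from the 4 signals of 1 probe set alone. It called none of the 10 at adjusted p under 0.05 and 4 at unadjusted p. The share of all tested probe sets at unadjusted p is not given here for either test. For limma it is no smaller than the adjusted shares of 12% and 11.8%, so the unadjusted counts cannot be set against a background. In RNA from whole hippocampus, a change in the number of cells of a type and a change in RNA per cell cannot be told apart.

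**Figure D1:**
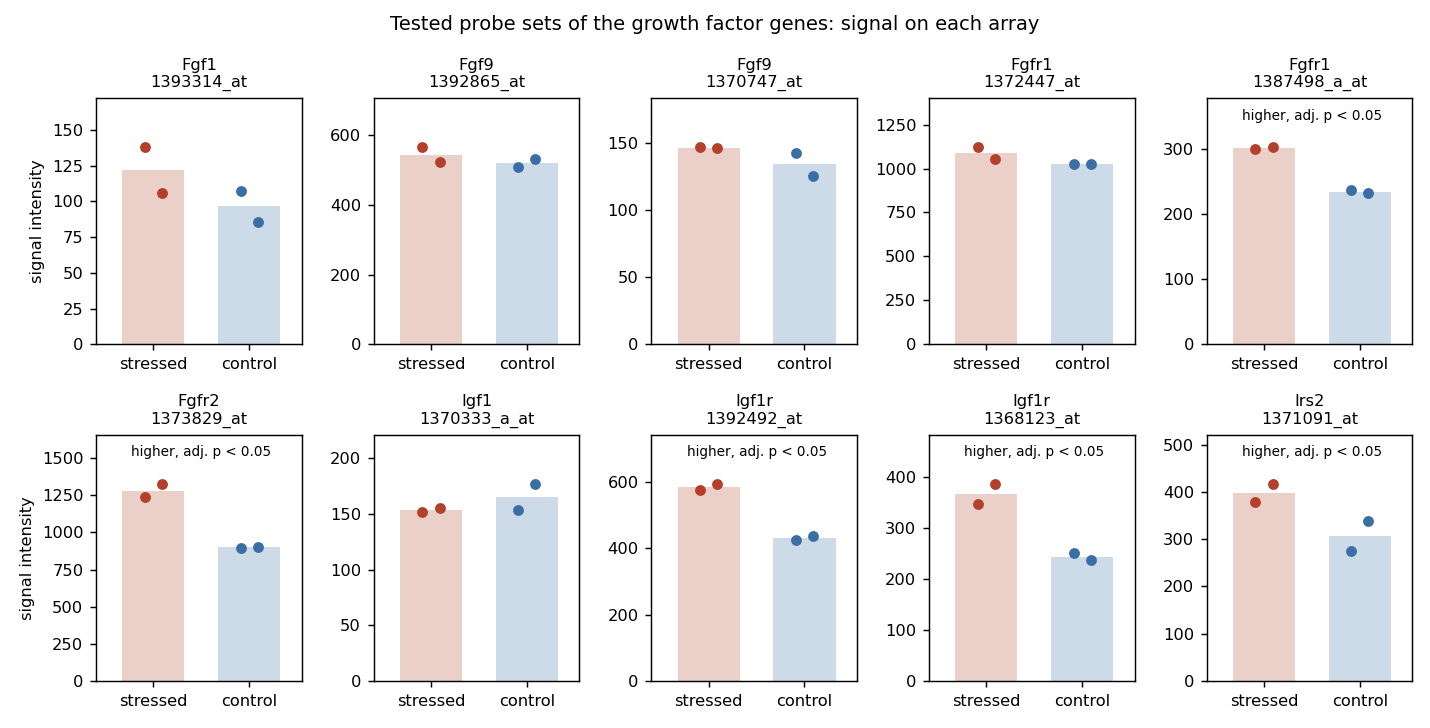
Signal intensity (linear axis from 0) of the 10 tested probe sets on each of the 4 arrays, stressed left and control right; points are arrays and bars are group means. In the 5 panels marked as higher, the stressed points lie above the control points.

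Receptor genes held the clearest differences. Igf1r encodes the tyrosine kinase receptor for IGF1 and IGF2, and it was the only member with 2 probe sets that both rose. Probe set 1368123_at had signals of 346.9 and 387.0 in stressed rats, against 251.4 and 236.9 in nonstressed controls. Its group means were 366.9 ± 28.4 in stressed rats and 244.2 ± 10.3 in nonstressed controls (SD, n = 2 arrays each), which was 1.5-fold (95% interval 1.29 to 1.75). The log2 fold change was 0.59 (SE 0.10, adjusted p = 0.00484 from limma), higher than that of 98.3% of tested probe sets. Probe set 1392492_at had signals of 575.9 and 594.6 in stressed rats, against 425.0 and 436.2 in nonstressed controls, or 0.44 on the log2 scale (SE 0.07, adjusted p = 0.00349 from limma). In both probe sets the lower stressed array stood well clear of the higher control array. The changes of the 2 probe sets differed from each other by 0.14 on the log2 scale (95% interval -0.15 to 0.43, adjusted p = 0.446 from limma), less than the error of that difference allows to call.

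Fgfr2 encodes an FGF receptor tyrosine kinase, whose splice forms bind different FGFs. Its only tested probe set, 1373829_at, had signals of 1237.4 and 1326.9 in stressed rats, against 893.0 and 904.5 in nonstressed controls. This was the member with the smallest p, at 0.51 on the log2 scale (SE 0.06, adjusted p = 8.24e-04 from limma) and a 1.43-fold rise (95% interval 1.3 to 1.56). The gap between the groups was several times the gap between arrays of 1 group, which was 0.10 among stressed and 0.02 among control arrays on the log2 scale. The calls of Fgfr2 and of both Igf1r probe sets were kept when any 1 of the 4 arrays was left out, with adjusted p up to 0.0154 for Fgfr2 and up to 0.0441 for Igf1r.

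The other 4 probe sets of Fgfr2 were dim, with no array above 29.7. Probe set 1370630_a_at had 29.7 and 23.7 in stressed rats and 26.6 and 19.9 in nonstressed controls, with overlap. Probe set 1388168_a_at had 12.9 and 7.3 in stressed rats and 18.2 and 21.1 in nonstressed controls. The 2 remaining probe sets, 1375129_at and 1371179_a_at, lay between 4.5 and 21.8 in stressed rats and between 0.5 and 3.5 in nonstressed controls. The stressed arrays of 1375129_at alone differed by 2.28 on the log2 scale, and no direction was read from these probe sets.

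Fgfr1 encodes an FGF receptor found on neurons and neural progenitors, and its 2 probe sets gave unlike calls. Probe set 1387498_a_at had signals of 299.1 and 302.2 in stressed rats, against 235.9 and 232.0 in nonstressed controls, or 0.36 on the log2 scale (SE 0.09, adjusted p = 0.0242 from limma). The arrays of a group lay within 0.02 of each other on the log2 scale, and the groups did not overlap. Probe set 1372447_at had signals of 1121.8 and 1054.2 in stressed rats, against 1027.6 and 1027.4 in nonstressed controls. Its log2 fold change of 0.08 did not pass (95% interval -0.04 to 0.21, adjusted p = 0.308 from limma). The difference between the changes of the 2 probe sets, -0.28 (95% interval -0.53 to -0.03), did not pass over all 2990 such pairs of probe sets of 1 gene (adjusted p = 0.0961 from limma), of which 27.2% differed. None of the 3 pairs of tested member probe sets passed. The call of 1387498_a_at was lost whichever array was left out, with adjusted p of 0.0731 and 0.0835 when stressed replicates 1 and 2 were absent and 0.0833 and 0.105 when control replicates 1 and 2 were, while the log2 fold change stayed between 0.35 and 0.37.

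Insr, which encodes the insulin receptor, was dim at both probe sets. Probe set 1392043_at had 58.2 and 54.7 in stressed rats, against 45.9 and 33.0 in nonstressed controls, so that the stressed arrays were the higher ones. The control arrays alone differed by 0.48 on the log2 scale. Probe set 1369051_at had 9.9 and 22.4 in stressed rats and 14.5 and 18.0 in nonstressed controls, with overlap. With the signal minimum lowered to 50, an alternative chosen after the values were seen, 1392043_at was tested and did not pass (log2 fold change 0.54, adjusted p = 0.198 from limma).

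**Figure D2:**
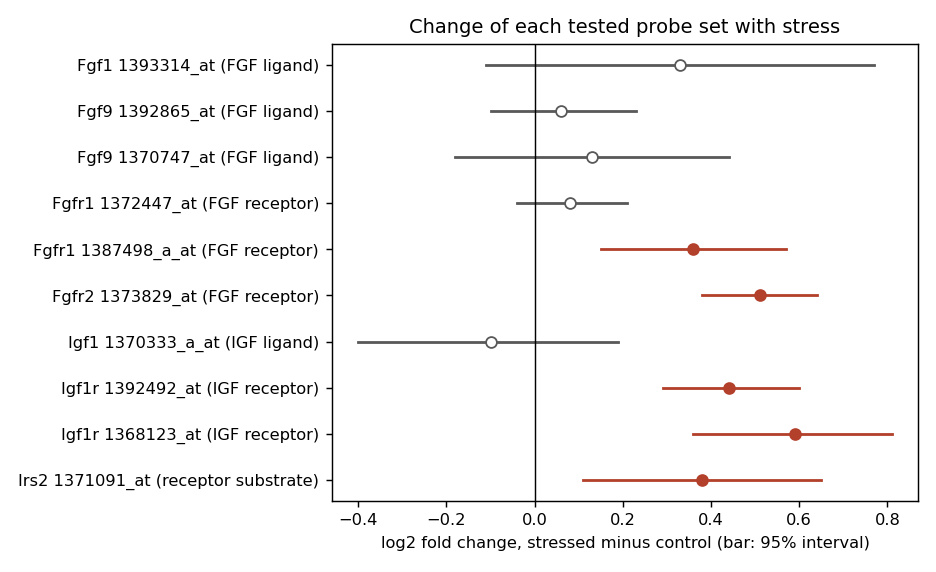
Log2 fold change (stressed minus control, horizontal axis) of each tested probe set with its 95% interval from limma; filled red points passed adjusted p under 0.05. The 2 Igf1r probe sets, at 0.59 and 0.44, and Fgfr2, at 0.51, lie farthest right, and the intervals of the ligands Fgf1, Fgf9 and Igf1 include 0.

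Downstream of the insulin and IGF1 receptors, Irs2 was higher in stressed rats by a narrow margin. Its single probe set, 1371091_at, had signals of 379.3 and 417.2 in stressed rats, against 274.9 and 339.3 in nonstressed controls. The groups did not overlap, but the control arrays differed by 0.30 on the log2 scale, not far below the log2 fold change itself, 0.38 (SE 0.11, adjusted p = 0.0476 from limma). The call was lost without an intensity trend in the moderation (adjusted p = 0.104), after quantile normalization (0.0521), with no filter on dim probe sets (0.0902), and without stressed replicate 1 (0.0571), stressed replicate 2 (0.162) or control replicate 1 (0.205, at a log2 fold change of 0.23). The paralogue Irs1, another docking protein of the receptors, was dim, with 18.6 and 13.9 in stressed rats and 20.4 and 6.2 in nonstressed controls, and its groups overlapped.

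The ligand genes showed no called change. Fgf9, a ligand made by neurons, had signals of 566.2 and 523.0 in stressed rats and 509.6 and 531.8 in nonstressed controls at 1392865_at, with overlap. Its fold was 1.05 (95% interval 0.933 to 1.17, adjusted p = 0.55 from limma). The other probe set of Fgf9, 1370747_at, had 147.0 and 146.3 in stressed rats, against 142.9 and 125.8 in nonstressed controls. Both stressed signals were the higher ones there, but the log2 fold change of 0.13 did not pass (95% interval -0.18 to 0.44, adjusted p = 0.515 from limma).

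Igf1, the ligand of Igf1r, had signals of 151.4 and 155.0 in stressed rats and 153.2 and 177.1 in nonstressed controls at 1370333_a_at. The groups overlapped and the log2 fold change was -0.10 (95% interval -0.40 to 0.19, adjusted p = 0.59 from limma), the only negative value among the tested members. Its other probe sets were dim. Probe set 1388469_at had 62.7 and 56.1 in stressed rats and 58.1 and 47.2 in nonstressed controls, and 1382599_at had 18.9 and 15.4 in stressed rats and 20.5 and 22.8 in nonstressed controls.

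Fgf1, a ligand that binds all FGF receptors, was close to the signal minimum. At 1393314_at the signals were 138.0 and 106.0 in stressed rats and 107.6 and 85.7 in nonstressed controls. The groups overlapped, and the log2 fold change of 0.33 had a wide interval (-0.11 to 0.77, adjusted p = 0.24 from limma). This interval holds both 0 and the 0.59 of Igf1r. The other 2 probe sets of Fgf1 were dim. Probe set 1392820_at had 21.1 and 8.9 in stressed rats and 11.7 and 10.4 in nonstressed controls, with overlap. Probe set 1387301_at had 16.6 and 7.9 in stressed rats and 2.4 and 3.1 in nonstressed controls, so that both stressed arrays were higher at a very low signal.

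Fgf2, a growth factor of astrocytes and progenitors, was dim at its single probe set, 1387606_at, with 32.8 and 37.9 in stressed rats, against 53.9 and 56.1 in nonstressed controls. Both stressed arrays were the lower ones. With the signal minimum lowered to 50 it was tested and did not pass (log2 fold change -0.64, adjusted p = 0.114 from limma).

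By role, none of the 4 tested ligand probe sets passed, with a median log2 fold change of 0.10. Of the 6 tested probe sets of receptors and substrates 5 rose, with a median of 0.41, while 12% of all tested probe sets rose. The tested probe sets of Fgf1 and Igf1, and 1370747_at of Fgf9, were brighter than only 4.96%, 18.4% and 14.1% of tested probe sets. Their SEs were 0.19, 0.13 and 0.13, against 0.05 to 0.11 for receptors and Irs2. A rise of the size of Fgfr1 or Irs2 was harder to call there. The other Fgf9 probe set, 1392865_at, had an SE of 0.07. The difference between ligands and receptors was not tested as such. Of the 12 dim probe sets, 4 had both stressed arrays above the controls, 3 had both below, and 5 overlapped. Over all 16251 probe sets under the minimum, 26% had both stressed arrays above the controls and 14.9% both below. The highest signal of the 12 dim member probe sets was 62.7, and 8 of the 12 stayed under 25 on every array. Probe sets built on expressed sequence tags were tested in 6 of 11 cases, those built on RefSeq mRNAs in 1 of 5 and those on other GenBank mRNAs in 3 of 6. The dim probe sets of Fgf2, Insr and Irs1 leave these 3 genes without a tested value.

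**Figure D3:**
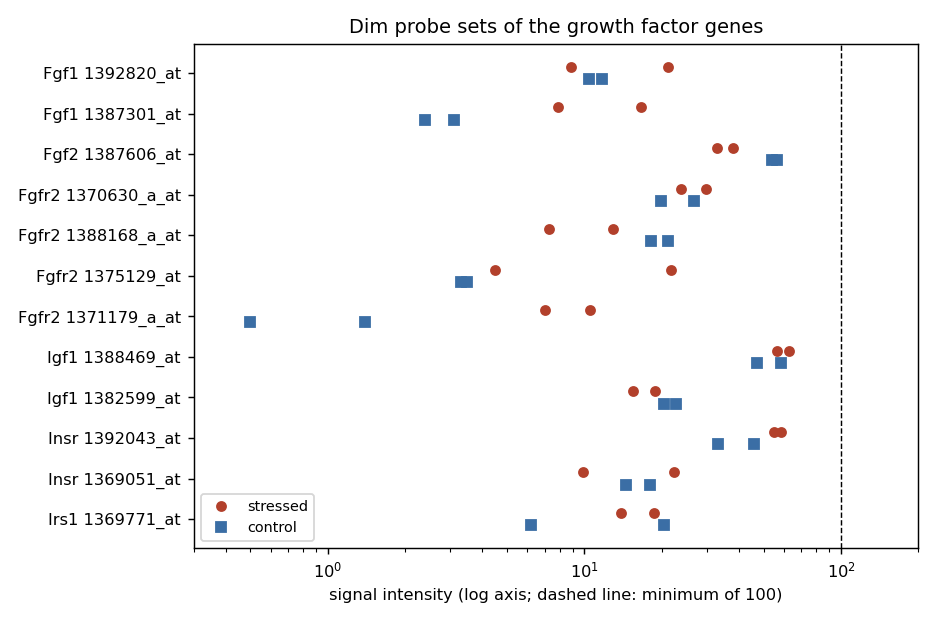
Signal intensity (log axis) of the 12 probe sets under the signal minimum on each array; circles are stressed and squares control, and the dashed line is the minimum of 100. No point exceeds 62.7, and 5 of the 12 have overlapping groups.

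The promoters of the receptors and the ligands differed in base composition. RefSeq (build GRCr8) gave a window of 300 bases around the annotated start, most of it upstream, for 8 of the 10 genes; Fgfr1 and Irs2 were not among them. G and C made up 78% of the window of Igf1r, 77.7% of Fgfr2, 71.3% of Insr and 70.3% of Irs1, against 49.7% in Fgf2, 48.3% in Fgf1, 48.3% in Igf1 and 44.7% in Fgf9. The median of all 33469 windows was 51.7%, and 98.4% and 98.2% of them had less than Igf1r and Fgfr2. These windows depend on the start that the annotation gives, and a gene with several starts is shown by 1 of them.

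The windows of the 2 receptor genes with the strongest calls are shown with that of Insr, a receptor whose probe sets were dim, and that of Fgf9, the ligand with the narrowest interval around no change. Capitals mark the motifs searched on both strands, which were the FoxO site TGTTTAC, the glucocorticoid receptor hexamer TGTTCT and the GC box GGGCGG bound by Sp factors. They occur in 3.78%, 20.7% and 33.1% of all windows. Each is printed 5′ to 3′ on the strand of its gene. The Igf1r window is chr1:130959747-130960046 on the plus strand, that of Fgfr2 is chr1:194280865-194281164 on the minus strand, that of Insr is chr12:6128754-6129053 on the minus strand, and that of Fgf9 is chr15:36327108-36327407 on the plus strand.
Igf1r: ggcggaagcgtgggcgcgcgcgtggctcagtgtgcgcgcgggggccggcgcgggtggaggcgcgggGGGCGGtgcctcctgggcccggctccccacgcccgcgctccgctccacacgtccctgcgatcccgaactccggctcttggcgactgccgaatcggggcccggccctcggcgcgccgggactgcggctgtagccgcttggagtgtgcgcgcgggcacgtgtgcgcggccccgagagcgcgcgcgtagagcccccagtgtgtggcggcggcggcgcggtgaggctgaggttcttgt
Fgfr2: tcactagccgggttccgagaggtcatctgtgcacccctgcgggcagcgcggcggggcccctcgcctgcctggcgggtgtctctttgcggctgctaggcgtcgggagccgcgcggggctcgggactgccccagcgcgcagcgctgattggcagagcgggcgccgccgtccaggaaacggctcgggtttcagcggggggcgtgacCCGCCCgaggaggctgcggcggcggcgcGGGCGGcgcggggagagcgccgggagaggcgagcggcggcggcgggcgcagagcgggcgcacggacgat
Insr: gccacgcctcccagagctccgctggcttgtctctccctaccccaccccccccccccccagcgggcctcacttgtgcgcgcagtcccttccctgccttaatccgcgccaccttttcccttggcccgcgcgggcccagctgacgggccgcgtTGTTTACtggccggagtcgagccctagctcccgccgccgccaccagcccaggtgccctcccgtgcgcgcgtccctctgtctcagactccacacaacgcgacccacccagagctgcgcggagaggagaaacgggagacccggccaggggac
Fgf9: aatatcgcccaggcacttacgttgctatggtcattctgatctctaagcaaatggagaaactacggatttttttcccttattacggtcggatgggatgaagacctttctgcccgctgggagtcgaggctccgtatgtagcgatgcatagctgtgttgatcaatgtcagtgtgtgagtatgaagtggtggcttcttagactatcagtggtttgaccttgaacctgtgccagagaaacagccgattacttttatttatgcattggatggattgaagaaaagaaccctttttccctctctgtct

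Igf1r held 1 GC box and Fgfr2 held 2, and neither window held the FoxO site or the hexamer. Insr held the only FoxO site among the 8 member windows, and Irs1 held 3 GC boxes. Among the ligands Fgf1 held 1 GC box, Fgf2 and Igf1 held 1 hexamer each, and Fgf9 held none of the motifs. A match is a run of letters and no measured site.

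**Figure D4:**
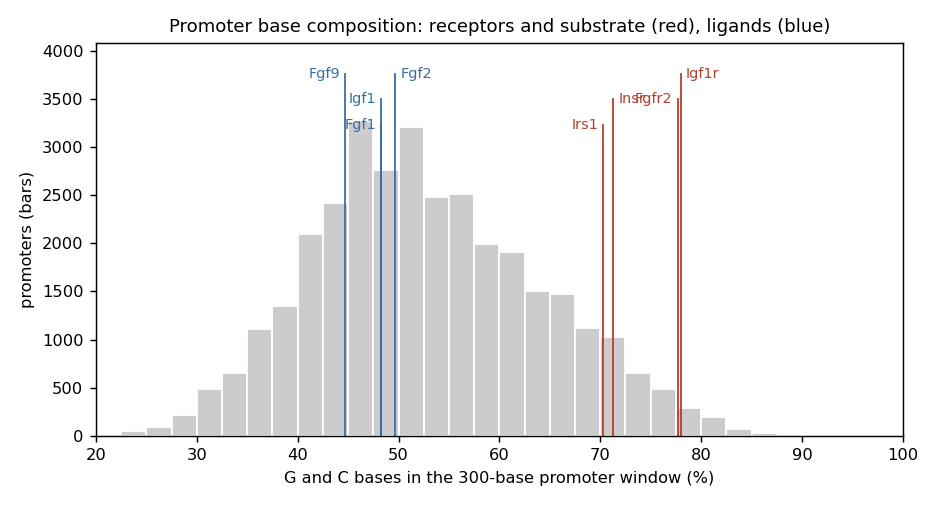
Percent of G and C bases in the promoter windows; grey bars count all 33469 windows and vertical lines mark the 8 members (red receptors and Irs1, blue ligands). The 4 red lines lie at 70.3% to 78% and the 4 blue lines at 44.7% to 49.7%.

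Other genes of the same pathways were followed in 5 lists made by known role, each gene at its brightest tested probe set. Of 113 genes, 102 had a probe set of their own, 67 were tested, 17 rose and 7 fell. Over all 9264 genes with a tested probe set, 11.1% rose and 10.2% fell. The lists, like the members, were chosen with earlier results of these data known, and the shares are given as description. The median log2 fold change was 0.09 over the 67 and 0.02 over the 9264. With the mean of all tested probe sets of a gene in place of the brightest, 17 rose and 9 fell. Without control replicate 2 the rises numbered 7, without control replicate 1 they numbered 9, and without an intensity trend 9.

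The receptor and ligand side of the FGF family moved in both directions. Of 10 tested genes 3 rose and 3 fell, with a median of 0.04. Fgfrl1, a receptor that lacks the kinase, had 307.5 and 307.0 in stressed rats, against 184.4 and 173.7 in nonstressed controls (log2 fold change 0.78, adjusted p = 0.00163 from limma). Fgfr3, a receptor gene of astrocytes, fell to 795.2 and 885.5 in stressed rats, against 1096.5 and 1093.7 in nonstressed controls (log2 fold change -0.38, adjusted p = 0.00518 from limma). Frs3, an adaptor of FGF receptors, also fell (-0.55, adjusted p = 0.0146), though not without stressed replicate 1 (0.0517) or control replicate 2 (0.107). Leaving out stressed replicate 2 or control replicate 2 left 1 rise, and leaving out stressed replicate 1 or control replicate 2 left 1 fall.

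Among feedback inhibitors and ETS transcription factors downstream of FGF receptors, 2 of 7 rose and 1 fell. Dusp6, a phosphatase that switches off ERK, fell to 620.1 and 675.7 in stressed rats, against 940.4 and 937.0 in nonstressed controls (-0.54, adjusted p = 0.00116 from limma), while its other 2 probe sets, at -0.20 and -0.19, did not pass. The ETS genes Etv1 (0.26, adjusted p = 0.00917 from limma) and Etv5 (0.44, adjusted p = 0.0176) rose. Another probe set of each rose as well (0.30 for Etv1 and 0.43 for Etv5), and 3 more of Etv1, from -0.13 to 0.19, did not pass. The second call of Etv5 was lost whichever array was left out, and that of Etv1 when any array other than stressed replicate 2 was. Etv1 was lost without control replicate 1 (0.0622) or 2 (0.0614) and Etv5 without stressed replicate 2 (0.0661) or control replicate 2 (0.102), so that the rises of this list numbered 1 without control replicate 1, 0 without control replicate 2 and 1 without stressed replicate 2.

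In the IGF system 2 of 11 tested genes rose and none fell by limma at adjusted p under 0.05, with a median of 0.01. At unadjusted p under 0.05 limma had 4 higher and 3 lower, but the share of all genes at that level is not given here. The methods' t-test called none at adjusted p under 0.05. These counts rest on the brightest probe set of a gene, and 2 genes that were not called passed at another. Igfbp5, a binding protein for IGFs, fell at its second probe set to 81.1 and 96.6 in stressed rats, against 210.1 and 197.1 in nonstressed controls (-1.20, adjusted p = 0.00131 from limma), and was at -0.22 at the brightest. Igf2r, a receptor that clears IGF2, rose at its second probe set to 235.0 and 233.0 in stressed rats, against 148.8 and 141.9 in nonstressed controls (0.69, adjusted p = 0.00443), and was at 0.07 at the brightest. Both calls were kept when any 1 array was left out. Igfbp2, a binding protein for IGFs, had 1165.7 and 1228.9 in stressed rats, against 930.2 and 878.2 in nonstressed controls (0.41, adjusted p = 0.00262 from limma). Igf2, the other ligand of Igf1r, had 1117.8 and 1155.4 in stressed rats, against 906.1 and 882.8 in nonstressed controls (0.35, adjusted p = 0.00352 from limma). Stc1, an inhibitor of the protease that frees IGFs, was at 0.50 and did not pass (adjusted p = 0.0666). Igf2 and Igfbp2 are known from choroid plexus and meninges, and both marker lists moved. Over all genes with a tested probe set 11.1% rose and 10.2% fell. Of 8 tested choroid plexus markers 6 rose and none fell, with a summed signal of 14506 to 15817 in stressed rats and 10961 to 12763 in nonstressed controls. Most of this sum was Ttr, which was not called (0.27, adjusted p = 0.0579 from limma). Ttr had 12992.4 and 11938.5 in stressed rats, against 9449.9 and 11337.7 in nonstressed controls. Of 7 tested meningeal markers 5 fell and none rose, with a summed signal of 1666 to 1689 in stressed rats and 2324 to 2357 in nonstressed controls.

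The remaining cell types that carry FGF and IGF receptors were looked at in the same way. Of 7 tested astrocyte markers 1 rose, Slc1a3, although another of its probe sets fell (-0.43, adjusted p = 0.0125 from limma), though not without control replicate 1 (0.0729) or 2 (0.0795). Aqp4 was at 0.13 at its brightest probe set and fell at another to 535.9 and 499.8 in stressed rats, against 1390.4 and 1164.1 in nonstressed controls (-1.30, adjusted p = 9.87e-05 from limma). The summed signal of the astrocyte markers at their brightest probe sets was 45248 to 46546 in stressed rats, against 40008 to 41328 in nonstressed controls. Most of this sum was Slc1a3, Gja1, S100b, Gfap and Aqp4. All of these but Slc1a3 were at log2 fold changes of 0.13 to 0.16 and were not called. The dimmer Slc1a2 (-0.40) and Aldh1l1 (-0.11) went the other way and were not called. Of 7 tested endothelial and mural markers 3 rose, with a summed signal of 2891 to 2922 in stressed rats and 2575 to 2628 in nonstressed controls. Microglial markers rose in 1 and fell in 2 of 6, oligodendrocyte markers in 1 and 1 of 7, and interneuron markers fell in 4 of 8. P2ry12 of microglia, at -0.23 at its brightest probe set, fell further at another (-1.27, adjusted p = 0.00113 from limma). Its signals there were 105.6 and 137.8 in stressed rats, against 281.8 and 301.2 in nonstressed controls. Mobp of oligodendrocytes, not called at its brightest, fell at another (-0.18, adjusted p = 0.0388 from limma), with a call lost whichever array was left out. Of the 11 principal neuron markers Camk2a rose, with a call lost whichever array was left out, and Neurod2 fell to 431.0 and 396.7 in stressed rats, against 726.0 and 706.9 in nonstressed controls (-0.79, adjusted p = 3.12e-04 from limma). At probe sets other than the brightest, Mbp of oligodendrocytes fell (-0.51), Zbtb20 of principal neurons rose at 1 (0.32) and fell at 2 (-0.79 and -0.99), and Cnp of oligodendrocytes, which fell at its brightest, rose (0.38). Of these 5 calls, those of Mbp and of Zbtb20 at -0.99 were kept when any 1 array was left out. Camk2a also rose at another probe set (0.55, adjusted p = 0.0229 from limma), a call that some removals of 1 array lost. Choroid plexus rises numbered 4 without stressed replicate 1, meningeal falls 3 without either control array, and endothelial and mural rises 0 or 1 without any 1 array. Microglial and oligodendrocyte markers then counted at most 1 in each direction. No listed marker with a probe set was at 0. The part of these cells in the changes of Igf1r, Fgfr2, Igf2 and Igfbp2 was not tested.

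Among receptor adaptors, PI3K and Akt, 4 of 20 tested genes rose and 1 fell, with a median of 0.10. Another 4 genes passed only at a probe set other than the brightest. Cbl, a ubiquitin ligase for receptor tyrosine kinases, fell at 2 of its probe sets (-1.05, adjusted p = 3.93e-04, and -0.37, adjusted p = 0.0195 from limma) and was at 0.16 at the brightest. Second probe sets of Akt1 (0.55, adjusted p = 0.0345), Ptpn1 (0.47, adjusted p = 0.0183) and Pik3r2 (0.34, adjusted p = 0.0247) rose. The Cbl call at -1.05 was kept when any 1 array was left out. That at -0.37 was lost without stressed replicate 2 (0.0533) or control replicate 1 (0.113), those of Akt1 and Pik3r2 without stressed replicate 1 (0.161 and 0.101), control replicate 1 (0.165 and 0.119) or control replicate 2 (0.085 and 0.0637), and that of Ptpn1 whichever array was absent (0.0609 to 0.0931). Phlpp1, a phosphatase that inactivates Akt, had 992.8 and 1032.8 in stressed rats, against 727.1 and 731.9 in nonstressed controls (0.47, adjusted p = 0.00107 from limma). Inppl1, which encodes the lipid phosphatase SHIP2, fell to 201.1 and 208.9 in stressed rats, against 310.4 and 306.9 in nonstressed controls (-0.59, adjusted p = 0.00429 from limma). Sos1, an exchange factor for Ras, rose at its brighter probe set (0.31, adjusted p = 0.0133) and not at the other (0.02). The Sos1 call was lost when stressed replicate 1 (0.0634), control replicate 1 (0.0595) or control replicate 2 (0.0817) was left out. This list then held 1, 2 and 2 rises in that order, and 1 without an intensity trend.

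Among genes of the FoxO, GSK3 and mTOR routes linked to Akt, 6 of 19 tested genes rose and 2 fell, with a median of 0.16. The 2 falls were Gsk3b, a kinase that Akt inhibits and that phosphorylates tau, and Foxo1, a transcription factor that Akt keeps out of the nucleus. Gsk3b had 414.0 and 391.7 in stressed rats, against 589.9 and 628.2 in nonstressed controls (-0.60, adjusted p = 0.00136 from limma). Foxo1 had 402.1 and 370.7 in stressed rats, against 544.3 and 539.1 in nonstressed controls (-0.49, adjusted p = 0.0036 from limma). Eif4ebp2, a repressor of translation that mTORC1 controls, rose (0.35, adjusted p = 0.00897), though not without control replicate 1 (0.0576). The rises of this list numbered 2 without control replicate 1, 2 without control replicate 2 and 3 without an intensity trend.

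**Figure D5:**
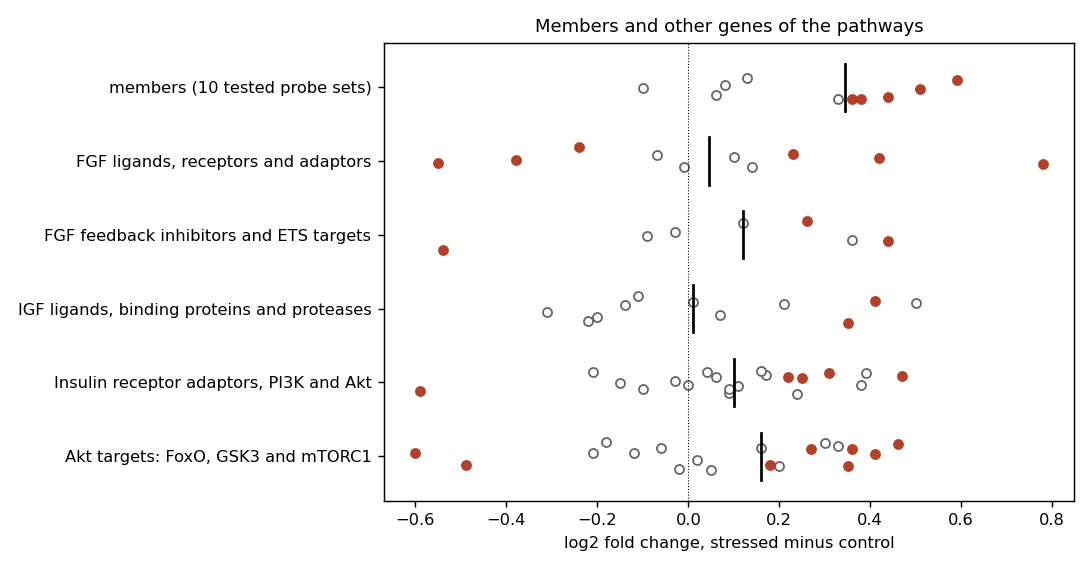
Log2 fold change (stressed minus control) of the 10 tested member probe sets and of the tested genes of the 5 pathway lists, 1 point a gene; filled red points passed adjusted p under 0.05 and black ticks are medians. The median of the members is 0.35 and those of the lists lie between 0.01 and 0.16.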

How the data were processed

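Total hippocampal RNA was hybridized to Affymetrix Rat Genome arrays. The authors used GCOS 1.4 to obtain the deposited intensities, a linear signal per probe set scaled to 1 target value per array; the mean after trimming 2% of values at each end was 300.1 on all 4 arrays. No further normalization between arrays was added. Detection calls and probe sequences were not used here, and the number of arrays limits the precision. Gene symbols came from the platform annotation and were updated through the gene ID where RefSeq held it. The members were picked by the platform symbol, which the update left unchanged for them. In R 4.3.3, zeros were set to 0.1, the 57 Affymetrix control probe sets left out, and log2 signals of stressed rats compared with those of nonstressed controls by limma 3.58.1 with an intensity trend and 7.73 degrees of freedom, over the 14791 probe sets that passed the signal minimum, with no replicate block. Differences between probe sets of 1 gene were fitted on within-array differences, over all 2990 pairs. The fits were tested on simulated data. The members and lists were chosen with earlier results of these data known. All members were to be named, and the 3 genes of each pathway list with the smallest p. Genes not matched to a probe set of their own are not reported. Alternatives changed the normalization, signal minimum, offset, moderation, test, pairing and arrays. Promoters came from RefSeq. Figures and tables used python 3.11.15, pandas 2.3.3 and matplotlib 3.10.9.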

Additional observations from a re-analysis of the deposited data

How the results depend on the processing

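Over 137 comparisons of a tested member probe set with an alternative setting, 121 kept direction and side of the threshold, 16 lost the call, none gained one and none reversed. All 16 losses fell on the 5 called probe sets, since the others had no call to lose. Of 14 alternatives each, Irs2 kept its call in 6 and Fgfr1 in 9. The calls of Fgfr2 and both Igf1r probe sets were lost only with the methods' t-test. At adjusted p under 0.05 that test called 0 members, 0 pathway genes higher and 0 lower. Over all 14791 tested probe sets it called only 4 higher and 14 lower. Leaving out 1 array gave 3 to 4 members higher and 7 to 13 pathway genes higher, and no intensity trend gave 9 pathway genes higher; each removal leaves 1 array in a group, which is then assumed to vary like the other group. With no filter, 2 dim member probe sets passed 2-fold and unadjusted p under 0.05, both at signals of at most 16.6, and with 1.5-fold in place of 2-fold 1 tested probe set, of Igf1r, did. The labels give both groups replicate numbers 1 and 2, but name no shared animal or day, and same-numbered deviations correlated at -0.11. With the replicate block 5 members and 15 pathway genes were higher and 0 and 6 lower. Over all tested probe sets the block gave 1281 higher and 1391 lower, against 1771 and 1744 without it. A crossed pairing, chosen after seeing the data, gave 4 and 21 higher and 0 and 8 lower. Over all tested probe sets the crossed pairing gave 2069 higher and 1970 lower. Dim signals limit what can be said of Fgf2, Insr and Irs1.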

Other observations

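Receptor tyrosine kinases outside the FGF and insulin families were listed after the values of the members had been seen. Of 30 such genes 17 were tested, 3 rose and none fell, with a median log2 fold change of 0.13, against 11.1% of genes that rose overall. The methods' t-test called none at adjusted p under 0.05. At unadjusted p under 0.05 limma had 3 higher and none lower, without the share of all genes at that level for comparison. They were Flt1, a receptor for vascular endothelial growth factor (0.87, adjusted p = 0.00728 from limma), Csf1r, a receptor of microglia (0.25, adjusted p = 0.0244), and Pdgfrb, a receptor of mural cells (0.54, adjusted p = 0.0424), each of which also stands in a marker list above. Pdgfrb was lost whichever array was left out (adjusted p = 0.121 to 0.154), Csf1r without stressed replicate 2, control replicate 1 or control replicate 2 (0.0659 to 0.127), and Flt1 without control replicate 2 (0.0537). Next by p came Mertk, Ddr1 and Egfr, with log2 fold changes of 0.18, 0.11 and 0.24, which did not pass. A second probe set of Egfr fell (-0.59, adjusted p = 0.0312), with a call lost whichever array was left out.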
